A study of Bos taurus with 2 samples.

Results

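Cullin-RING ubiquitin ligases are built on a cullin scaffold and receive their substrates through adaptor proteins. The transcripts described here are those of the cullins (CUL), the SKP proteins, the F-box proteins (FBXO, FBXL and FBXW) and the kelch-like proteins (KLHL), in the testis of crossbred and Zebu bulls. The rule that picks them uses the names on the array and no measured value. It takes each non-control probe whose gene name starts with FBXO, FBXL or FBXW, or is CUL, KLHL or SKP followed by a digit. This gave 101 of the 32429 gene names and 198 of the 51282 probes on the array. There were 34 FBXO, 16 FBXL, 9 FBXW, 7 CUL, 2 SKP and 33 KLHL genes.

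In an SCF ligase, CUL1 carries SKP1, SKP1 holds an F-box protein, and the F-box protein binds the substrate. CUL3 takes its substrates through BTB proteins, and the KLHL proteins, with a BTB domain and kelch repeats, are the best known of these. Cullins such as CUL1 are switched on by attachment of the ubiquitin-like protein NEDD8 and are handed between adaptors by CAND1. Germ cells rely on such ligases through meiosis and during the remodelling of the spermatid, and KLHL10 is a germ cell adaptor of CUL3 that male mice need for fertility.

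The crossbred group was 3 Holstein Friesian crossbred bulls with 50 to 75% exotic inheritance, and the Zebu group was 3 bulls of the Tharparkar breed. All were 24 months old, and slices from the middle of the right testis were taken from each. The RNA was pooled in equal amounts within a group, labelled with Cy3 and hybridized to 1 Agilent bovine array per group, so the spread between bulls was not measured. Every difference is the crossbred minus the Zebu log2 signal after the 75th percentile of each array was subtracted, and with 1 array per group it has no replicate check and no p-value.

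Each array had 62976 spots. By the flags of the scanner software, 72.0% (crossbred) and 74.3% (Zebu) of the spots other than controls were well above background. A probe with this flag on either array is called detected. Genes and probes are called higher or lower where the difference reached 1.5 in size (2.83-fold) and the brighter array carried the flag. Each gene is represented by its brightest probe, taken by the mean log2 level of both arrays. The SD of a difference between spots of the same probe was 0.34 over 5960 probes, which covers spotting and scanning only. A dark patch of 544 spots with a median difference of -1.01 and a bright patch of 105 spots with a median of 1.1 lay on the crossbred array. They held 4 spots and 1 spot of these genes.

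The probes are 60 bases long. Printed here are probes of KLHL10 and KLHL11, which adjoin each other on chromosome 19 in the ARS-UCD2.0 gene table, of KLHL3, FBXO24 and FBXO17, whose probes likewise differed the same way by 1 or more, of FBXO44, whose second probe gives only a bound, and of FBXO48, which had the largest difference among the genes measured on both arrays. Positions come from the annotation columns of the array, which use the build HGSC Btau_3.1, and exons and UTRs of that build were not analysed here. Sequences are in lower case.
KLHL10: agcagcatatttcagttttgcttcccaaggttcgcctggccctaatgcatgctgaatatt
KLHL11: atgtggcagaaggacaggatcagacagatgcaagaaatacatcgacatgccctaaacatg
KLHL3, first probe: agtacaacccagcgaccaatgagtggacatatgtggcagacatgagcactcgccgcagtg
KLHL3, second probe: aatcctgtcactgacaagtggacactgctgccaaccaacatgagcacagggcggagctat
FBXO24: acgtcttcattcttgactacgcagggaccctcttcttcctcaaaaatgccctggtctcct
FBXO48: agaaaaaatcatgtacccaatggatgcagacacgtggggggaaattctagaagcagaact
FBXO17: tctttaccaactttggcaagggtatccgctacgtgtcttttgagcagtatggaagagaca
FBXO44: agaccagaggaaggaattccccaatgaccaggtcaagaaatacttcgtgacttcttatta

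The KLHL10 probe lies at chr19:43391851-43393303 on the plus strand, over more bases than its own length, so it joins separate stretches of the assembly. The KLHL11 probe lies at chr19:43399108-43399167 on the minus strand. Those of KLHL3 are at chr7:48326238-48326297 and chr7:48319573-48319632 on the minus strand. The FBXO24 probe is at chr25:38078152-38078211, that of FBXO48 at chr11:68772318-68772377, that of FBXO17 at chr18:48256239-48256298 and that of FBXO44 at chr16:38766423-38766482, all on the minus strand.

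A pair of CUL4A probes is shown because it gives the same stretch of transcript measured separately. The capitals mark the 53 bases they share.
CUL4A, first probe: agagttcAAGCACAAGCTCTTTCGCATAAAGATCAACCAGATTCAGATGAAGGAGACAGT
CUL4A, second probe: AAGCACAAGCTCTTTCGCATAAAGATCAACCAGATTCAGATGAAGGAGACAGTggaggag

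They lie at chr12:84733399-84735562 and chr12:84733406-84735569 on the plus strand. The first read -0.85 in crossbred and -0.28 in Zebu testis (difference -0.57), and the second read -1.04 and -0.50, a difference of -0.54. Among the probes of these genes outside the patches, 6 such pairs in 6 genes shared 20 bases or more and were well above background on both arrays. Their differences lay a median of 0.09 and at most 0.16 apart. Pairs of the same gene that shared fewer bases lay a median of 0.27 and at most 1.69 apart (93 pairs in 50 genes). No probes of different genes of this set shared 20 bases.

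Most of these genes were measured in testis at similar levels in both groups. Of the 101 genes, 93 were detected, 90 of them on both arrays, KLHL1 in crossbred only, and KLHL4 and KLHL33 in Zebu only. FBXL17, FBXO36, FBXO40, FBXO41, KLHL14, KLHL25, KLHL31 and KLHL38 were well above background on neither. Counted as higher in crossbred testis were 6 of the 93 (6.45%), beside 7.12% of all 24751 gene names detected. Counted as lower were 2 of the 93 (2.15%), beside 2.92% of all. Both shares were near, and slightly under, those of all genes, so the set as a whole did not stand apart by its counts. With normexp background correction 4 genes were higher and none lower.

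The median difference of the 90 genes was -0.15, and that of all gene names well above background on both arrays was -0.04. Above 0 were 35 of the 90 (38.9%) and below 0 were 55. Of all gene names well above background on both arrays, 47.7% were above 0. The difference was under 0.5 in size for 57.8% of them and for 52.2% of all genes. By family, the median was -0.21 for FBXO (31 genes), -0.02 for FBXL (15), -0.07 for FBXW (9), -0.07 for KLHL (26) and -0.39 for the 7 cullins. By probe, 179 were detected, of which 7 (3.91%) were higher and 5 (2.79%) lower, beside 6.14% and 2.99% of all 39804 probes detected.

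**Figure D1:**
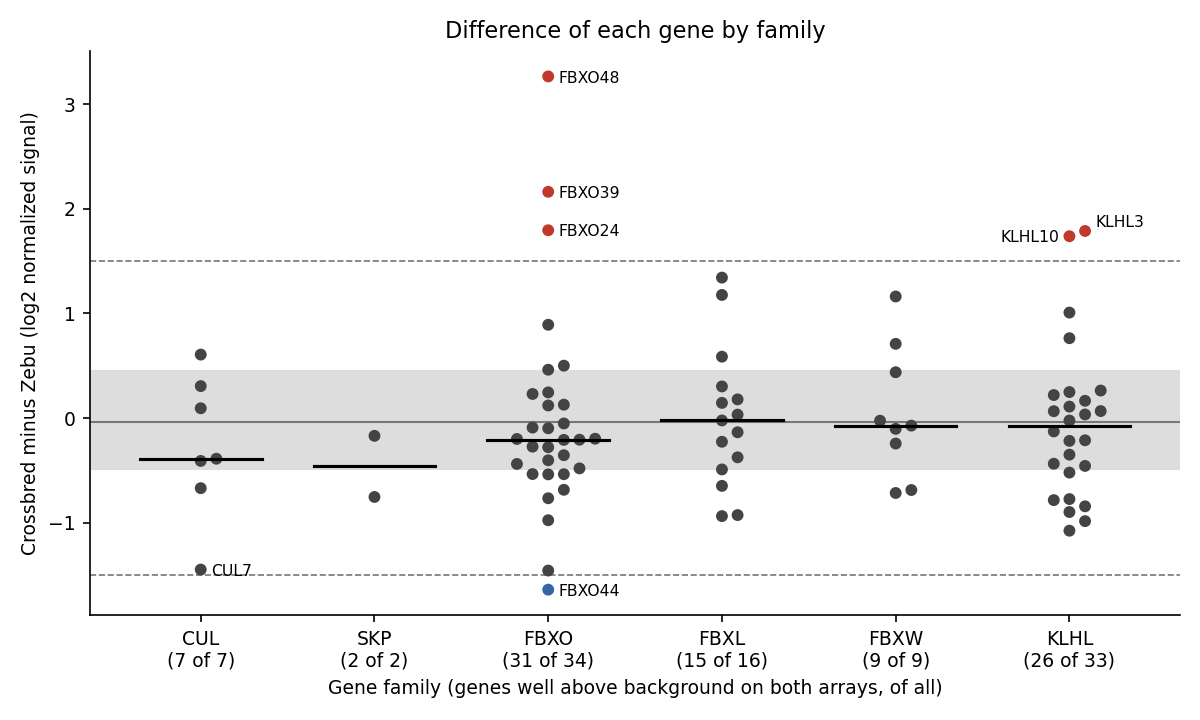
Crossbred minus Zebu difference (y axis, log2 normalized signal) of each gene well above background on both arrays, by family (x axis, with the number shown of all genes). Black bars are family medians, the grey band and line are the quartiles and median of all genes, dashed lines mark a difference of 1.5 in size, and red and blue points are higher and lower than that. FBXO48, FBXO39, FBXO24, KLHL3 and KLHL10 lie above the upper line and FBXO44 lies below the lower one.

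The cullin scaffolds were all detected on both arrays, and none passed 1.5. CUL1, the scaffold of the SCF ligases, read 5.96 in crossbred and 5.35 in Zebu testis. The difference was 0.61, and its 3 other probes were higher by 0.19 to 0.53. CUL3, which the KLHL proteins bind, read 4.79 and 4.48, a difference of 0.31, with 0.21 from its other probe. CUL5, a scaffold for SOCS box receptors, read -0.63 and -0.73, a difference of 0.09, with 0.47 and 0.55 from its other probes. These 3 cullins were thus higher in crossbred testis with every probe, although the CUL3 probes, the CUL1 probe with 0.19 and the brightest CUL5 probe stayed within the spot SD.

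The remaining cullins read lower in crossbred testis. CUL2, which works with elongins, read 2.15 and 2.54, a difference of -0.39, and its 3 other probes gave -0.81 to -0.41. Around the brightest CUL2 probe the 18 nearest spots had a median difference of -0.45. CUL4A, which works with DDB1, read 2.62 and 3.03, a difference of -0.41. Its close relative CUL4B, encoded on the X chromosome, read 3.48 and 4.15, a difference of -0.67. The 2 spots of that CUL4B probe gave -0.71 and -0.63, and 3 further probes gave -1.11 to -0.66. The last CUL4B probe went the other way, being well above background on the crossbred array only and at least 1.88-fold higher there. CUL7, which pairs with FBXW8, had the largest cullin difference and 1 probe, at -0.09 in crossbred and 1.36 in Zebu testis, and its difference of -1.45 just missed 1.5. FBXW8, the F-box protein of that pair, read 3.46 and 3.49, a difference of -0.02.

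SKP1, the bridge between CUL1 and every F-box protein, read 4.48 in crossbred and 4.65 in Zebu testis. The difference was -0.17, with 0.08 from its other probe. Its level thus differed by less than the spot SD. SKP2, the F-box protein that marks the cell cycle inhibitor p27 for destruction, read -0.67 and 0.08, a difference of -0.75. A second SKP2 probe gave -0.81, another gave 0.10, and one well above background in Zebu only was at least 1.42-fold lower in crossbred testis. The SKP2 probes therefore do not give 1 common difference.

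Among the F-box genes 3 were counted as higher. FBXO48 read 0.98 in crossbred and -2.29 in Zebu testis, a difference of 3.26. FBXO39, known for expression in testis, read 1.80 and -0.36, a difference of 2.16. Both rest on 1 probe with 1 spot. FBXO24, likewise enriched in testis, read 1.66 and -0.13, a difference of 1.80, and its other probe read -1.04 and -2.31, a difference of 1.27. The spots around these probes did not shift, with medians of the 18 nearest spots between 0.03 and 0.19. FBXL7 read -4.31 and -5.48, a difference of 1.18, and FBXW10 read 2.37 and 1.21, a difference of 1.16, each from 1 probe.

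FBXO44 was the F-box gene counted as lower. It read -2.29 in crossbred and -0.65 in Zebu testis, which is a difference of -1.64. Its other probe, well above background in Zebu only, was at least 1.64-fold lower in crossbred testis. With normexp its difference was -1.45. FBXO44 belongs to the branch of F-box proteins that includes the glycoprotein receptors FBXO2 and FBXO6. Of the 4 genes of that branch on the array, 3 were below 0, with a median of -1.22. FBXO17 read -1.94 and -0.48, a difference of -1.46, with -1.0 from its other probe. FBXO2 read -1.56 and -0.58, a difference of -0.98, but -0.13 from its other probe. FBXO6 read 2.10 and 1.97, a difference of 0.13, and -0.04 from both its other probes.

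The cell cycle group of F-box proteins held 9 genes, none of which passed 1.5, and 7 of them were below 0, with a median of -0.21 and a range from -0.94 to 0.59. FBXW7, which marks cyclin E for destruction, read 0.03 and 0.13, a difference of -0.10. FBXO5 and FBXO43, the inhibitors EMI1 and EMI2 of the anaphase-promoting complex, differed by -0.44 and -0.21. FBXL12 read -1.74 and -0.80, a difference of -0.94. The group is thus described by small values, most of them within 0.5 in size.

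Other F-box genes with known roles did not pass 1.5 either. FBXL5, the iron sensor that limits the iron regulatory proteins, read 3.24 and 3.20, a difference of 0.03. FBXL4, a mitochondrial F-box protein, read -3.77 and -2.84, a difference of -0.93 from 1 probe. FBXO32, the muscle atrophy ligase atrogin-1, read -1.21 and -0.45 with one probe, a difference of -0.77, and -1.53 and -2.30 with the other, a difference of 0.77. Those 2 probes of FBXO32 contradict each other, and no direction can be given for the gene.

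The rest of the F-box genes lay inside 1.5. The 9 FBXW genes measured on both arrays ranged from -0.72 to 1.16. FBXW5, which binds DDB1 and CUL4 as well, read 4.89 in crossbred and 4.18 in Zebu testis, a difference of 0.71 from 1 probe. FBXO45, an F-box protein of neurons, read -1.18 and -2.07, a difference of 0.89, also from 1 probe. Where several probes existed they could agree closely even for small differences. The 3 probes of FBXO11 lay between -0.22 and -0.14 and the 3 of FBXO9 between -0.56 and -0.27.

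Among the kelch-like genes KLHL10, KLHL3 and KLHL1 were counted as higher. The brightest KLHL10 probe read 4.98 in crossbred and 3.24 in Zebu testis, which is a difference of 1.74. Its other probe, printed above, read 0.11 and -1.23, a difference of 1.34. Its neighbour KLHL11, also a kelch-like gene expressed in testis, read 1.59 and 0.58, a difference of 1.01, and its printed probe gave 1.05. Both genes were therefore higher in crossbred testis with both probes, KLHL10 by more. The medians of the 18 nearest spots of these 4 probes lay between 0.15 and 0.26.

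KLHL3, which with CUL3 limits the WNK kinases of the kidney, read -2.95 in crossbred and -4.74 in Zebu testis, a difference of 1.79. Its other probe read -3.57 and -4.98, a difference of 1.41. Around the brighter of these probes the 18 nearest spots had a median difference of 0.53, more than the spot SD. These are dim probes: the lowest probe well above background read -5.78 on the crossbred and -5.94 on the Zebu array, and with normexp the difference of KLHL3 was 1.01. KLHL1, a neuronal kelch protein, read -4.58 in crossbred testis and was not well above background in Zebu testis. It was at least 2.57-fold higher in crossbred testis, a bound that lies under the 2.83-fold of the threshold, and 0.70 with normexp on the log2 scale. KLHL2, which acts on the same kinases as KLHL3, read 0.52 and 0.49, a difference of 0.04, with 0.05 from its other probe. KLHL12, an adaptor of CUL3 in the secretory pathway, was higher by 0.76 and 1.08 with its 2 probes and did not pass.

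KLHL33 was the kelch-like gene counted as lower. It read -3.82 in Zebu testis and was not well above background in crossbred testis, where it was at least 3.89-fold lower. Its 2 other probes were well above background on neither array, and with normexp its difference was -0.87. KLHL13, an X-linked CUL3 adaptor of mitosis, read -0.65 and 0.42, a difference of -1.08, and its other probe, detected in Zebu only, was at least 1.32-fold lower. KLHL9, its partner, read -3.31 and -2.85, a difference of -0.46. KLHL22, another mitotic adaptor, read 2.81 and 2.64, a difference of 0.17, but -0.56 from its other probe. The 4 mitotic adaptors had a median of -0.61, with 3 below 0 and none past 1.5. One of the 3 is KLHL21, whose other probe went the opposite way, and with the mean of its probes KLHL21 was 2.21 higher in crossbred testis. KLHL23 read -0.30 and 0.48, a difference of -0.78, with -0.89 from its other probe. KLHL17 read -4.21 and -3.31, a difference of -0.90, with -0.73. KLHL32 read 1.11 and 1.13, a difference of -0.02, but its other probe gave -1.33. The KLHL genes measured on both arrays thus ranged from -1.08 to 1.79. The 4 X-linked genes measured on both arrays (CUL4B, KLHL13, KLHL15 and KLHL34) had a median of -0.59. KLHL34 was at 0.07 and near the floor, with levels of -5.76 in crossbred and -5.83 in Zebu testis. Medians of the set by chromosome ran from -0.86 on chromosome 23 to 1.01 on chromosome 19. X-linked genes outside the set were not compared.

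**Figure D2:**
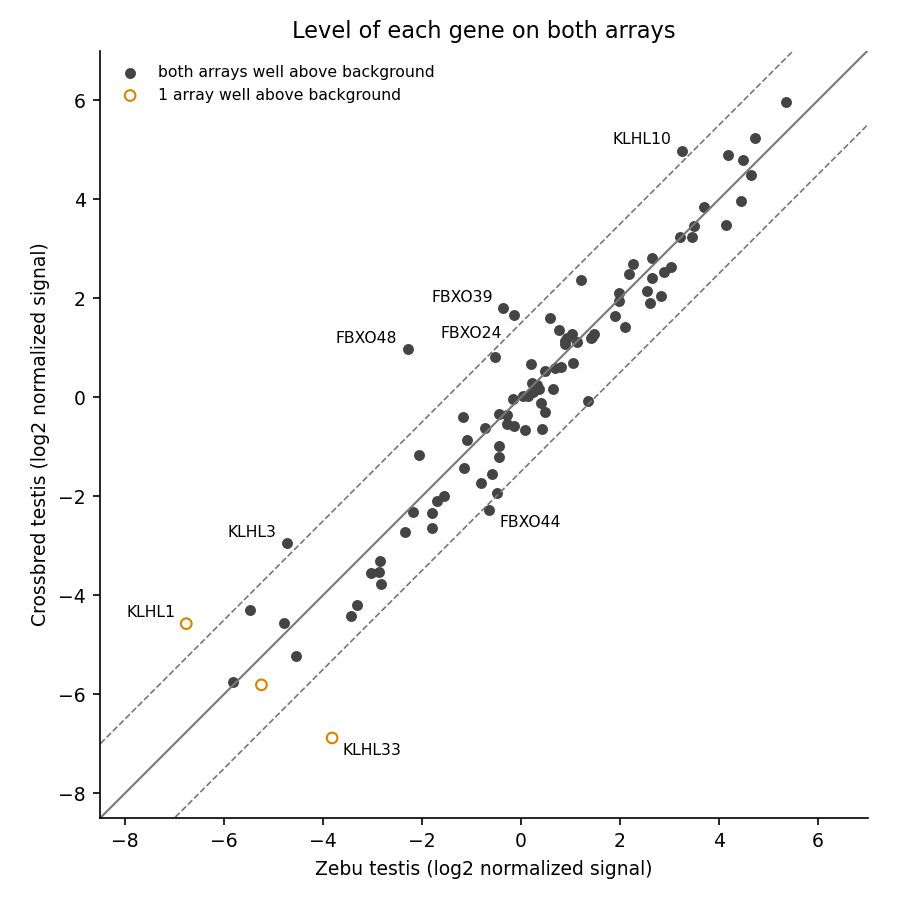
Level of each gene in Zebu testis (x axis) and crossbred testis (y axis), both as log2 normalized signal, from its brightest probe. The solid line marks equal levels and the dashed lines a difference of 1.5 in size, open circles are genes well above background on 1 array, and the 8 genes past the lines are named. KLHL1 and KLHL33 are open circles and the other named genes are filled.

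The genes listed here for their known expression in testis went both ways. Of the 10 on the array, 9 were measured on both arrays, 5 above and 4 below 0, with a median of 0.50, and KLHL10, FBXO24 and FBXO39 were the 3 that passed (33.3% of those detected, beside 7.12% of all gene names). The group was put together with earlier results known, and it leaves out KLHL11. FBXO15 read 5.23 and 4.73, a difference of 0.50, and 0.36 from a second probe that shares 54 bases with the first. FBXO16 read 3.96 and 4.44, a difference of -0.48. FBXW12 read 1.90 and 2.61, a difference of -0.72, and FBXO47, needed in meiosis, gave -1.13 from its probe outside the patches.

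Markers of the testicular cell types differed between the pools as well. All 19 spermatid markers on the array were above 0, 14 of them past 1.5, with a median of 1.64 and a range from 0.36 to 2.92. Most of those 14 had also been picked as higher from these same arrays by the study, so this tally is no independent evidence of a direction. Their summed signal was 1038 times the 75th percentile in crossbred and 449.5 times in Zebu testis. All 8 Sertoli cell markers detected were below 0, with a median of -0.99, and their summed signal was 153.7 and 241.3 times the 75th percentile. INHBB, a ninth, was well above background on neither array. All 7 peritubular and smooth muscle markers were below 0, with a median of -0.77 and sums of 41.2 and 65.8. Of the 9 spermatogonium markers 7 were below 0, with a median of -0.71 and sums of 31.0 and 43.9. STRA8 and NANOS3 were above 0, at 0.59 and 0.36. Of the 9 spermatocyte markers 7 were above 0 and 2 below, with a median of 0.20 and sums of 48.2 and 41.3. Of the 8 Leydig cell markers 7 were below 0, with a median of -0.51 and sums of 89.6 and 133.6. CYP17A1 and HSD3B1 were lower by over 1.5, and HSD17B3 was higher by 0.93. INSL3 made up most of both Leydig cell sums. In the same way CLU, UCHL1 and STAG3 made up most of the Sertoli cell, spermatogonium and spermatocyte sums. The medians of the endothelial and macrophage markers lay above 0, at 0.11 and 0.38. The endothelial sums were 5.60 and 2.83 and the macrophage sums 17.9 and 9.32. With the mean of all probes the endothelial median was -0.01. CLDN5, at 2.22 in crossbred and 0.89 in Zebu testis, made up most of both endothelial sums. Of the 6 endothelial markers 4 were above 0, and KDR and TEK were at -0.38 and -0.23. AIF1 and CD14, the brightest macrophage markers, were at 1.95 and 0.56. CSF1R was at -0.19, and CD163 was detected in Zebu only. The part of these markers in the differences of KLHL10, FBXO24, FBXO39 and the other genes was not tested. In such bulk RNA, more cells of a type and more RNA per cell cannot be told apart.

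The other components of the cullin ligases were set beside the adaptors. All 38 genes of the shared machinery were well above background on both arrays, with a median of 0.15. Of these, 5 (13.2%) were higher by 1.5 or more and none was lower, beside 7.12% and 2.92% of all gene names detected. This list was put together with earlier results known. The study had already picked DCUN1D1 and DCUN1D3 as higher from these same arrays, so the share is no independent evidence of a direction. RBX1, the RING subunit, read 4.57 and 4.68, a difference of -0.10, and NEDD8 read 4.59 and 4.42, a difference of 0.17. The 9 genes of the COP9 signalosome, which removes NEDD8 from cullins, lay between -0.33 and 0.53. RBX1, NEDD8 and the COP9 genes thus differed by at most 0.53 in size.

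The higher genes of the machinery were of 2 kinds. DCUN1D1, DCUN1D2 and DCUN1D3, which help NEDD8 onto cullins, were higher by 1.52, 2.23 and 1.79, and DCUN1D4 was higher by 1.05, while DCUN1D5 differed by 0.02. Each of the 3 that passed has 1 probe measured on both arrays. UBE2R2, a ubiquitin-conjugating enzyme of the SCF ligases, read 2.61 and 0.35, a difference of 2.26. Its relative CDC34 read 5.43 and 3.73, a difference of 1.71, but its other probe gave -0.96. CAND1, the exchange factor, read 2.65 and 3.22, a difference of -0.57, and CAND2 read -1.63 and -0.49, a difference of -1.14.

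Adaptors of cullins with other names numbered 84 on the array, and 81 were detected. Their median was -0.04, as for all genes, and 5 (6.17%) were higher by 1.5 or more and none was lower, beside 7.12% and 2.92% of all gene names detected. The 5 genes were receptors with a SOCS box. They belong to the largest class, the 41 listed receptors of CUL2 or CUL5, of which 40 were detected. SOCS7 was higher by 2.70, ASB17, known from testis, by 2.06, ASB7 by 1.67, ASB5 by 1.60 and ASB12 by 1.54. Whether this class differed from the 23 BTB adaptors of CUL3 and the 18 receptors of CUL4 was not tested. BTRC, the F-box protein beta-TrCP, differed by 0.29, and KEAP1, the CUL3 adaptor for NRF2, by 0.23.

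**Figure D3:**
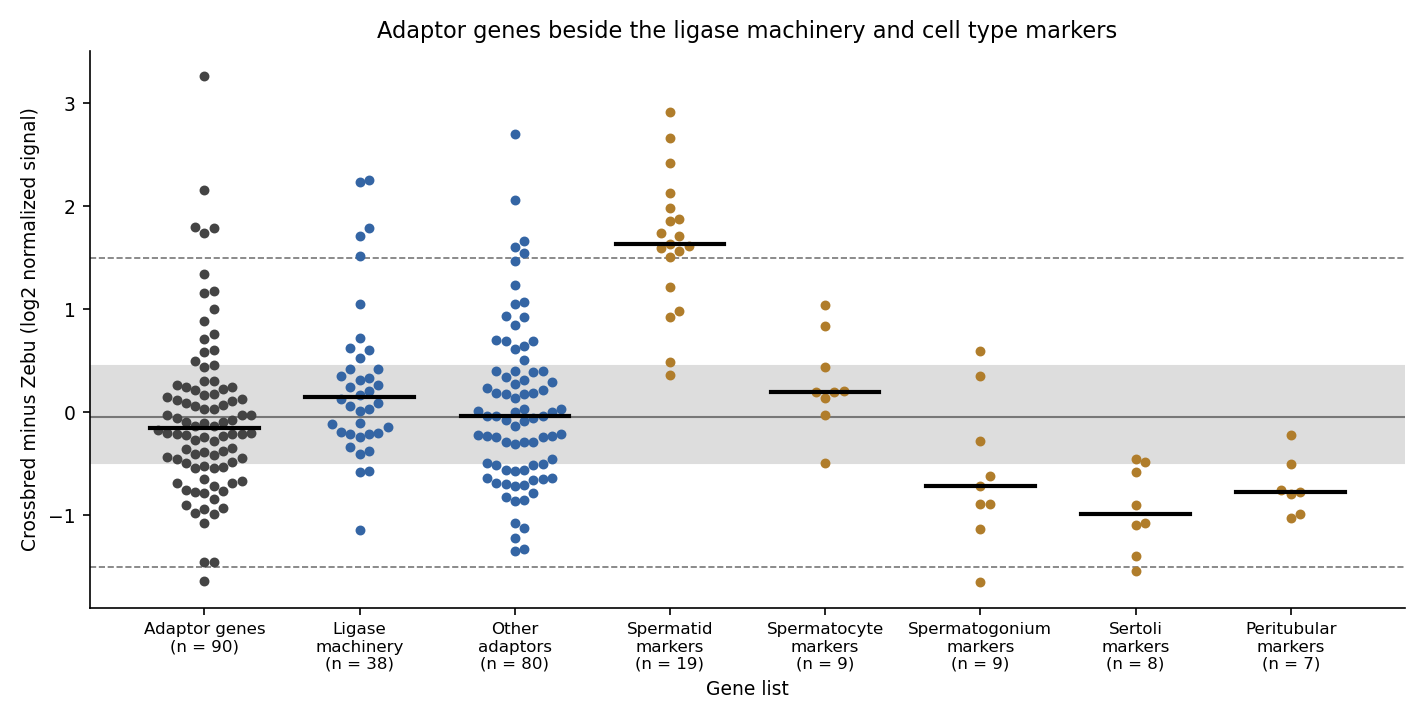
Crossbred minus Zebu difference (y axis, log2 normalized signal) of each gene well above background on both arrays, for the adaptor genes, the ligase machinery, other adaptors and 5 lists of cell type markers (x axis, with n). Black bars are medians, the grey band and line are the quartiles and median of all genes and dashed lines mark 1.5 in size. The 3 ligase lists centre between -0.15 and 0.15, the spermatid markers at 1.64 and the Sertoli cell markers at -0.99.

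How far the probes of 1 gene agreed set the precision of these values. Of the 54 genes with several probes measured on both arrays, 34 (63.0%) had all probes on the same side of 0, against 66.8% of 8185 genes on the whole array. The median span between the lowest and highest probe was 0.36, against 0.39, and no gene spanned over 2 among these probes. KLHL21 spanned more only through a probe detected on 1 array. Besides the probe read for a gene, the genes counted as higher had 3 further detected probes and those counted as lower had 1, and none of these 4 passed 1.5, although all pointed the same way. Probe positions in the transcript are those of the array annotation, whose reference is not stated. By these, the probe nearest the 3′ end differed from that nearest the 5′ end by a median of -0.01 in 46 genes with probes at least 300 bases apart, and by -0.11 in 6568 genes of the array. By base composition, the median difference went from -0.22 for the 57 probes under 40% GC to 0.07 for the 35 probes with 50% or more, and in all probes from -0.21 to 0.09.

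For FBXW2 and FBXW12, spots in the dark patch gave values that their other probes or spots did not share. A probe of FBXW2 had 1 spot in the dark patch, at -1.35 in crossbred and 1.34 in Zebu testis (a difference of -2.70). The spot outside it gave 0.99 and 1.35 (a difference of -0.36). The 3 other probes of FBXW2 gave -0.74 to -0.32. FBXW12 had a probe in the dark patch with a difference of -2.32, while its others gave -0.72 and -0.82. FBXO47 had its brightest probe there, at -0.40, and a probe of FBXO18 there was well above background on neither array. A probe of FBXW11, the F-box protein beta-TrCP2, lay in the bright patch at 0.18, and its other probe gave -0.24. No gene counted as higher or lower was read from a spot in a patch.

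KLHL21, a mitotic adaptor of CUL3, had the widest disagreement. It read 2.05 and 2.82, a difference of -0.77, with its brightest probe. Its other probe, detected in crossbred testis only, was at least 22.4-fold higher there, and the 18 spots nearest to it had a median difference of 1.53. That place lies outside both marked patches.

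**Figure D4:**
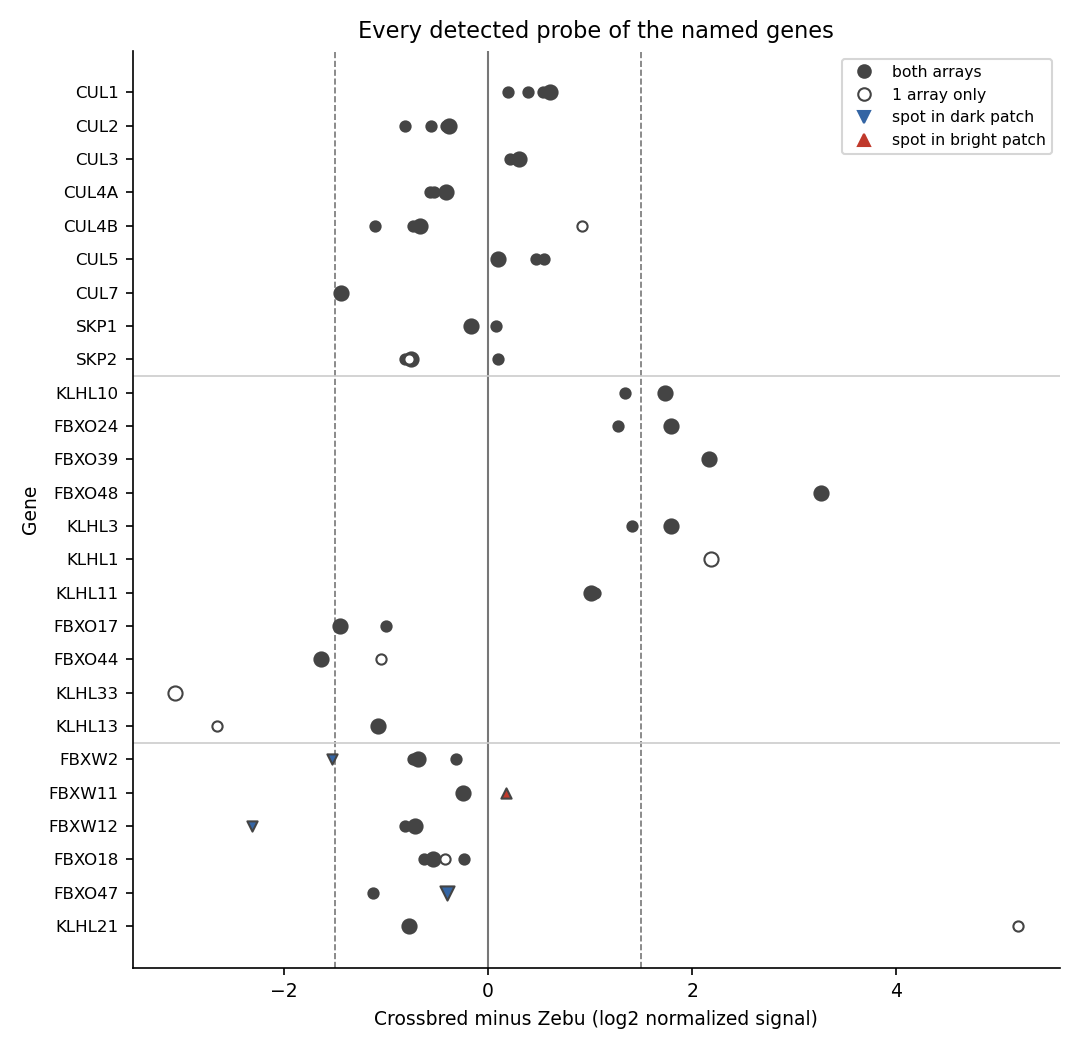
Crossbred minus Zebu difference (x axis, log2 normalized signal) of every detected probe of the named genes (y axis), with cullins and SKP genes at the top, genes past 1.5 or with detected probes whose measured differences all reached 1 the same way in the middle, and genes with a spot in a patch and KLHL21 at the bottom. Large symbols are the probe read for the gene, open circles are probes well above background on 1 array at their measured difference, for which the text gives smaller bounds, triangles have a spot in the dark (blue) or bright (red) patch and dashed lines mark 1.5 in size. The dark patch probes of FBXW2 and FBXW12 lie at -1.53 and -2.32, below the other probes of these genes.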

How the data were processed

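RNA pools of 3 bulls per group were measured on 1 array each. The authors quantified the scans with Feature Extraction 11.5.1.1 and deposited a processed intensity per spot, corrected for background and for trends across the array, together with mean and background intensities and, per the file headers, flags for spots well above background, saturated or outliers. The authors also deposited log2 values after a 75th percentile shift. Here control spots and 13 outlier spots were left out, which removed 1 probe of FBXO15 and left 197 probes. Log2 signals were averaged over spots, and the 75th percentile over probes (1176 and 1233 as signal) was subtracted.

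For probes well above background on 1 array only, the fold is a bound: the brighter level over the higher of the dim probe's own level and the lowest level well above background on that array. Genes were named if they were a cullin or SKP gene, passed 1.5, had 2 or more detected probes outside the patches differing the same way by 1 or more, or had probes spanning over 2, and otherwise as examples of a role group. Members, gene lists and markers were chosen with earlier results of these data known. Gene names on the array are old, and 98 of 101 matched the ARS-UCD2.0 gene table by symbol, FBXO18 by synonym (FBH1) and FBXW12 by accession, and FBXW10 did not match. The averaging of spots, the shift, the choice of probe and the calls were tested on simulated data where every spot carried the flag. The other steps were not tested in this way. Python 3.11.15, numpy 2.4.6, pandas 2.3.3, scipy 1.17.1, R 4.3.3 and limma 3.58.1 were used. Alternatives were normexp with an offset of 50, other shifts, quantile normalization, the authors' log2 values, the mean of all probes, other filters and thresholds, and spots left out by place. Precision is limited by the number of arrays. Some of the genes are not reported here by name, and the real-time PCR of the study was not analysed here.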

Additional observations from a re-analysis of the deposited data

How the results depend on the processing

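The median difference of the genes stayed between -0.18 and -0.09 under all 8 alternatives run for it, and no counted gene changed sign. Against 6 genes higher and 2 lower, and 7 probes higher and 5 lower, normexp gave 0 genes and 1 probe lower, with 4 genes and 5 probes higher. FBXO44, KLHL3, KLHL1 and KLHL33 were no longer counted with it. Over all gene names normexp left 1030 higher and 169 lower, against 1762 and 722. With probes well above background on both arrays only, 1 gene and 3 probes were lower. Without the 2 marked patches 3 probes were lower, and also without spots whose 18 nearest spots had shifted by over 1, an alternative chosen after the data were seen. At a threshold of 1, 10 genes and 17 probes were higher and 5 genes and 15 probes lower, and at 2, 3 genes and 4 probes were higher and 1 gene and 3 probes lower. With the mean of all detected probes KLHL21 and KLHL13 were counted and FBXO44 was not. KLHL13 was at -1.87, and KLHL21 turned from -0.77 to 2.21. Of 160 values of the 20 named genes under these alternatives, 155 moved by less than the spot SD. The other shifts could move every gene only by the same amount, so much of this tally was fixed beforehand. KLHL21 is not among those 20 genes. No paired analysis was possible because each group has 1 array.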
